A study of Sus scrofa with 9 samples.

Results

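AMD1, ARG2, ODC1 and SAT1 encode enzymes that make, feed or break down polyamines, and their transcripts were followed in the back muscle of 9 finishing pigs fed 3 levels of lysine. The genes were picked up by symbol in the array's probe-to-gene table, where AMD1, ARG2 and SAT1 each had 1 probe set (15184804, 15312575 and 15333368). These are 3 of the 27558 probe sets on the array and 3 of the 4 genes named. The table used names no probe set for ODC1, which is not analysed here. AMD1 and ARG2 were chosen by their higher values in deficient than in adequate pigs in an earlier reading of these same arrays, and their values against excess pigs were known as well. Their differences among the 3 diets, excess against adequate included, are therefore given as a description, with no test, and those of SAT1 likewise.

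The muscle was the longissimus dorsi, taken between the ribs numbered 10 and 12 after 5 weeks on a lysine-deficient, lysine-adequate or lysine-excess diet. All pigs were male and weighed about 95 kg at the start, and the labels give neither breed nor age. Each diet had 3 pigs, and each pig gave 1 whole-transcript array, which limits the precision. Adequate pigs are the reference for both other diets, so the comparisons with them share those 3 pigs. The values are the authors' log2 expression values, with the base inferred from their range, and every fold below rests on that base.

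Polyamines (putrescine, spermidine and spermine) are small positively charged molecules that bind nucleic acids and are needed for growth and for translation. Arginase turns arginine into ornithine and urea, ornithine decarboxylase (ODC1) turns ornithine into putrescine, and S-adenosylmethionine decarboxylase (AMD1) supplies the aminopropyl groups that lengthen putrescine to spermidine and spermine. SAT1 acetylates spermidine and spermine, which starts their breakdown or export. Arginine and lysine enter cells through the same cationic amino acid carriers. ODC1, AMD1 and SAT1 are strongly controlled after transcription, so transcript levels need not follow enzyme activity, which was not measured.

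AMD1, the decarboxylase of S-adenosylmethionine, was highest in deficient, intermediate in adequate and lowest in excess pigs, with no overlap between any of the diets. Its log2 value was 10.62, 10.42 and 10.41 in deficient pigs 1, 2 and 3. In adequate pigs 5, 6 and 7 it was 10.20, 9.84 and 10.05. In excess pigs 9, 10 and 11 it was 9.77, 9.51 and 9.41. The lowest deficient pig lay 0.21 above the highest adequate pig, and the lowest adequate pig lay 0.074 above the highest excess pig, so the second step is narrow. Group means were 10.48 ± 0.12 in deficient, 10.03 ± 0.18 in adequate and 9.56 ± 0.18 in excess pigs (SD, n = 3 each).

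The deficient pigs thus exceeded the adequate pigs in AMD1 by 0.45 ± 0.13 on the log2 scale (SE), or 1.37-fold, and the excess pigs by 0.92 ± 0.13, or 1.89-fold. A larger deficient minus adequate difference was seen in 300 probe sets, and a larger deficient minus excess difference in 117. The share of probe sets with all 3 deficient pigs above all 3 adequate pigs was 3.77%, and 4.28% had all 3 deficient pigs above all 3 excess pigs. AMD1 and ARG2 were in both shares and SAT1 in neither. As the genes were chosen on these contrasts, nothing is read from that count. The full order of AMD1, deficient above adequate above excess, occurred in 51 probe sets (0.185%), and the opposite order in 10 (0.0363%). That order was noticed in the values and then counted.

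Between excess and adequate pigs, AMD1 was 1.38-fold lower in the excess pigs (log2 difference -0.46 ± 0.13, SE, n = 3 per group). All 3 excess pigs lay below all 3 adequate pigs, as they did in 3.84% of all probe sets. A lower excess minus adequate difference was seen in 927 probe sets. Leaving out any 1 pig gave log2 differences from -0.57 to -0.38. On the array of excess pig 11 bright probe sets lay low: among the 2756 brightest probe sets, to which AMD1 and SAT1 belong, its median deviation from the mean of excess pigs 9 and 10 was -0.30, against -0.23 for AMD1 and -0.41 for SAT1. Over those probe sets the median excess minus adequate difference was -0.11. Without excess pig 11 the AMD1 difference was -0.39. The part of the array difference in this result was not tested beyond these values.

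**Figure D1:**
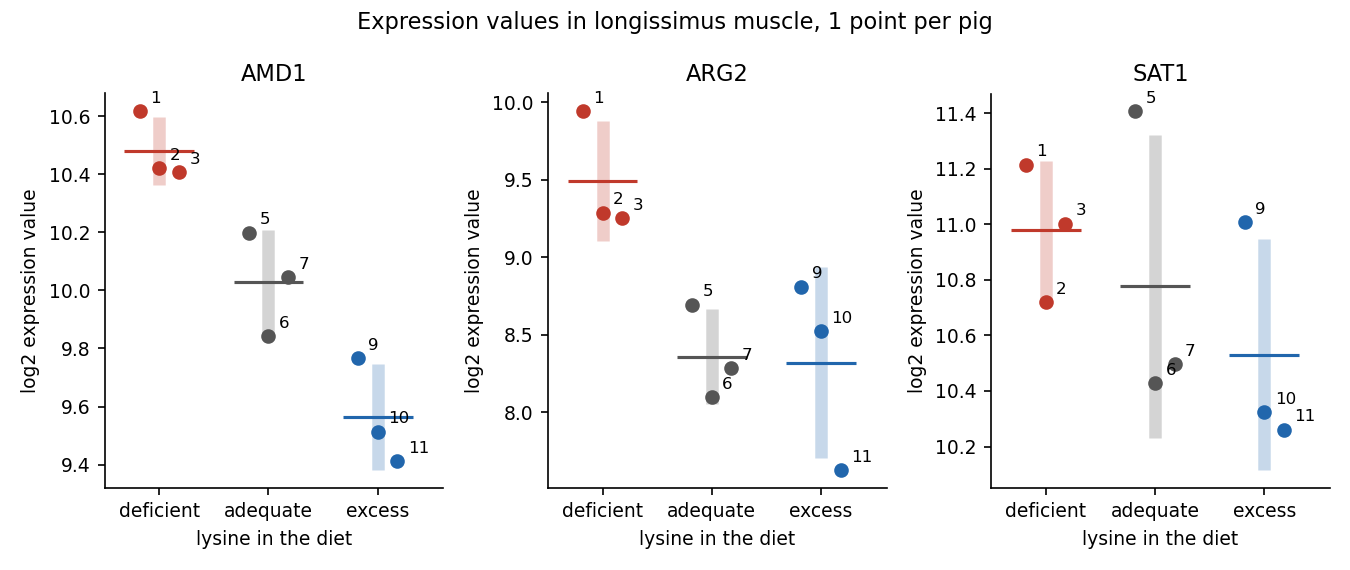
Log2 expression values of AMD1, ARG2 and SAT1 (vertical axes, each with its own scale) by lysine diet, with 1 point per pig labelled by pig number, horizontal lines at the means and shaded bars of ± 1 SD (n = 3). The diets are fully separated for AMD1, deficient pigs lie above the other 6 pigs for ARG2, and the diets overlap for SAT1.

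ARG2, the mitochondrial arginase, was higher in deficient pigs than in both other groups, and adequate and excess pigs overlapped. Its log2 value was 9.94, 9.29 and 9.25 in deficient pigs 1, 2 and 3. Adequate pigs 5, 6 and 7 had 8.69, 8.10 and 8.28. Excess pigs 9, 10 and 11 had 8.81, 8.52 and 7.63. The lowest deficient pig lay 0.44 above the highest of the other 6 pigs, which was excess pig 9, and 0.56 above the highest adequate pig. Means were 9.49 ± 0.39, 8.36 ± 0.31 and 8.32 ± 0.62 in deficient, adequate and excess pigs (SD, n = 3).

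The deficient pigs exceeded the adequate pigs in ARG2 by 1.13 ± 0.33 (SE), or 2.20-fold, a difference that 13 probe sets surpassed. They exceeded the excess pigs by 1.17 ± 0.33, or 2.25-fold, and 49 probe sets showed more. Without deficient pig 1, the highest of all, these differences were 0.91 and 0.95. Without excess pig 11, the lowest, the deficient minus excess difference was 0.83. ARG2 on that array lay 1.04 below the mean of excess pigs 9 and 10 (a deviation of -1.04), while the 2756 probe sets of the next lower bin by level, which holds ARG2, had a median deviation of -0.53. The median excess minus adequate difference in that bin was -0.20.

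Excess and adequate pigs differed in ARG2 by -0.04 ± 0.33 (SE, n = 3 per group). Its SE is several times its size, so it does not show that the groups were alike. The sign turned to 0.31 without excess pig 11 and to 0.13 without adequate pig 5. ARG2 in adequate and excess pigs thus has no order beyond the spread, while AMD1 in all 3 diets was ordered without overlap.

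SAT1, the acetyltransferase of polyamine breakdown, had its group means in the same order as AMD1 but with overlap between all diets. Its log2 value was 11.22, 10.72 and 11.00 in deficient pigs 1, 2 and 3. It was 11.41, 10.43 and 10.50 in adequate pigs 5, 6 and 7, where pig 5 held the highest value of all 9 pigs. Excess pigs 9, 10 and 11 had 11.01, 10.32 and 10.26. Means were 10.98 ± 0.25, 10.78 ± 0.55 and 10.53 ± 0.42 (SD, n = 3), so neighbouring diets differ by less than the SD within the adequate group.

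The deficient minus adequate difference of SAT1 was 0.20 ± 0.31 (SE) and became 0.52 without adequate pig 5 and 0.03 without adequate pig 6. The deficient minus excess difference was 0.45 ± 0.31. Excess minus adequate was -0.25 ± 0.31, and the sign turned to 0.07 without adequate pig 5. The largest of the 3 mean differences, 0.45, compares with a pooled SD within diets of 0.42.

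The genes also differed in how much pigs of 1 diet varied. The pooled SD within diets was 0.16 for AMD1, and 47.1% of probe sets had a smaller one. For ARG2 it was 0.46 and for SAT1 0.42, with 90.6% and 88.8% of probe sets below them. AMD1 and ARG2 ranked the pigs of each diet in the same way, which was noticed in the values. Pig 1 was above 2 and 3, pig 5 above 7 and 6, and pig 9 above 10 and 11. SAT1 had the same order in adequate and excess pigs but had pig 3 above pig 2 among the deficient pigs. Of the other 27557 probe sets, 141 (0.512%), ARG2 included, shared the order of AMD1 in every diet.

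Other array facts bear on all of these values. The correlation of excess pig 11's array with the others ran from 0.904 to 0.956, and the largest correlation of every other array was at least 0.990. Array quality weights were 0.68, 0.19 and 0.22 for excess pigs 9, 10 and 11, and 0.90 to 2.46 for the other arrays. With these weights AMD1 differed by -0.36 ± 0.18 (SE) between excess and adequate pigs. At an adjusted p below 0.05, limma called 0 of 27558 probe sets (0%) between deficient and adequate pigs, 0 between excess and adequate pigs and 0 between deficient and excess pigs. The F test over the 3 diets called 0 as well, with 700 at an unadjusted p below 0.05. At an unadjusted p below 0.05 there were 511 (1.85%), 981 (3.56%) and 1124 probe sets (4.08%) in the 3 comparisons. Muscle fibre markers were bright in every pig: the mean level of ACTA1, MYL1, TNNC2, MYH7 and MYOT, the 5 of 10 with a probe set, ran from 12.96 to 13.08 over the 9 arrays.

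Markers of other cell types moved with some of these results, and in bulk muscle fewer cells of a type and less RNA per cell cannot be told apart. The mean level of the adipocyte markers, of which 4 of 6 had a probe set, was 5.23 to 5.41 in deficient, 4.83 to 5.25 in adequate and 4.78 to 4.86 in excess pigs, the same order of means as AMD1. PLIN1 and CIDEC exceeded the median probe set level of 5.07, and LEP and RETN did not. All 4 were higher in deficient than in adequate pigs, and 3 of 4 in deficient than in excess pigs. In excess against adequate pigs 1 of 4 was higher, RETN at 0.15, while LEP was at -0.01, PLIN1 at -0.45 and CIDEC at -0.42. Fibroblast markers (7 of 8) stood at 9.31 to 9.65, 9.69 to 10.08 and 9.18 to 9.66, with the adequate pigs above all others. Macrophage markers (8 of 10, 4 below the median level) ran from 5.37 to 5.79, from 5.59 to 5.67 and from 5.21 to 5.73. Neutrophil markers (5 of 7, each dimmer than the median probe set) averaged 4.25 to 4.29 in deficient, 4.15 to 4.23 in adequate and 4.20 to 4.34 in excess pigs. All 3 deficient pigs thus lay above all 3 adequate pigs, as for AMD1 and ARG2, with 4 of 5 markers higher and a median difference of 0.09. Excess pigs had the same mean as deficient pigs, 4.26, also with 4 of 5 markers above adequate (median 0.03). AMD1 and ARG2 were lower in excess than in deficient pigs. Endothelial markers (6 of 8) ranged from 6.49 to 6.77, from 6.43 to 6.62 and from 6.39 to 6.82. The part of these cells in the values of AMD1, ARG2 and SAT1 was not tested.

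Around these enzymes, 44 other genes of polyamine, arginine, proline, creatine and S-adenosylmethionine metabolism had a probe set, of 69 listed. None passed limma's adjusted threshold in any of the 3 comparisons. Some of the 44 lay below the median probe set level of 5.07. At an unadjusted p below 0.05 there were 2, 1 and 3 of the 44 between deficient and adequate, excess and adequate, and deficient and excess pigs, against 1.85%, 3.56% and 4.08% of all probe sets. Between deficient and adequate pigs 18 of the 44 were higher and 26 lower (median -0.04), against 52.9% of all probe sets higher and a median of 0.0071. In excess against adequate pigs 14 were higher and 30 lower (median -0.06), against 50.2% of all probe sets higher. Over the alternative settings that median ran from -0.12 to 0.0026. Levels were not matched: in this comparison the 2756 brightest probe sets had a median of -0.11 and the next lower bin -0.20. Between deficient and excess pigs the split was 21 and 23 (median -0.0037), against 50.0% of all probe sets higher, and it turned to 25 and 19 after quantile normalization and to 28 and 16 after median centring.

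The enzymes that act beside AMD1 showed smaller differences than AMD1 itself in each comparison. SRM, spermidine synthase, which uses the product of AMD1, differed by 0.01 ± 0.10 (SE) between deficient and adequate pigs and by 0.18 ± 0.10 between deficient and excess pigs. SMS, spermine synthase, which adds the second such group, differed by -0.14 ± 0.22 and 0.16 ± 0.22. In excess against adequate pigs SRM stood at -0.16 ± 0.10 and SMS at -0.30 ± 0.22. The difference in response between these genes was not tested.

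Regulators of ODC1 were also on the array. OAZ1, an antizyme that targets ornithine decarboxylase for degradation, lay below the adequate pigs in all 3 deficient and all 3 excess pigs, by log2 differences of -0.19 ± 0.08 and -0.11 ± 0.08. The separation was narrow: its lowest adequate value was 12.3195, and its highest deficient and excess values were 12.3161 and 12.3059. All 3 deficient pigs lay below all 3 adequate pigs in 3.07% of probe sets, and all 3 excess pigs did in 3.84%. OAZ2, a related antizyme, differed by -0.16 ± 0.13 and -0.06 ± 0.13. In deficient against excess pigs OAZ1 stood at -0.08 ± 0.08 and OAZ2 at -0.10 ± 0.13.

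**Figure D2:**
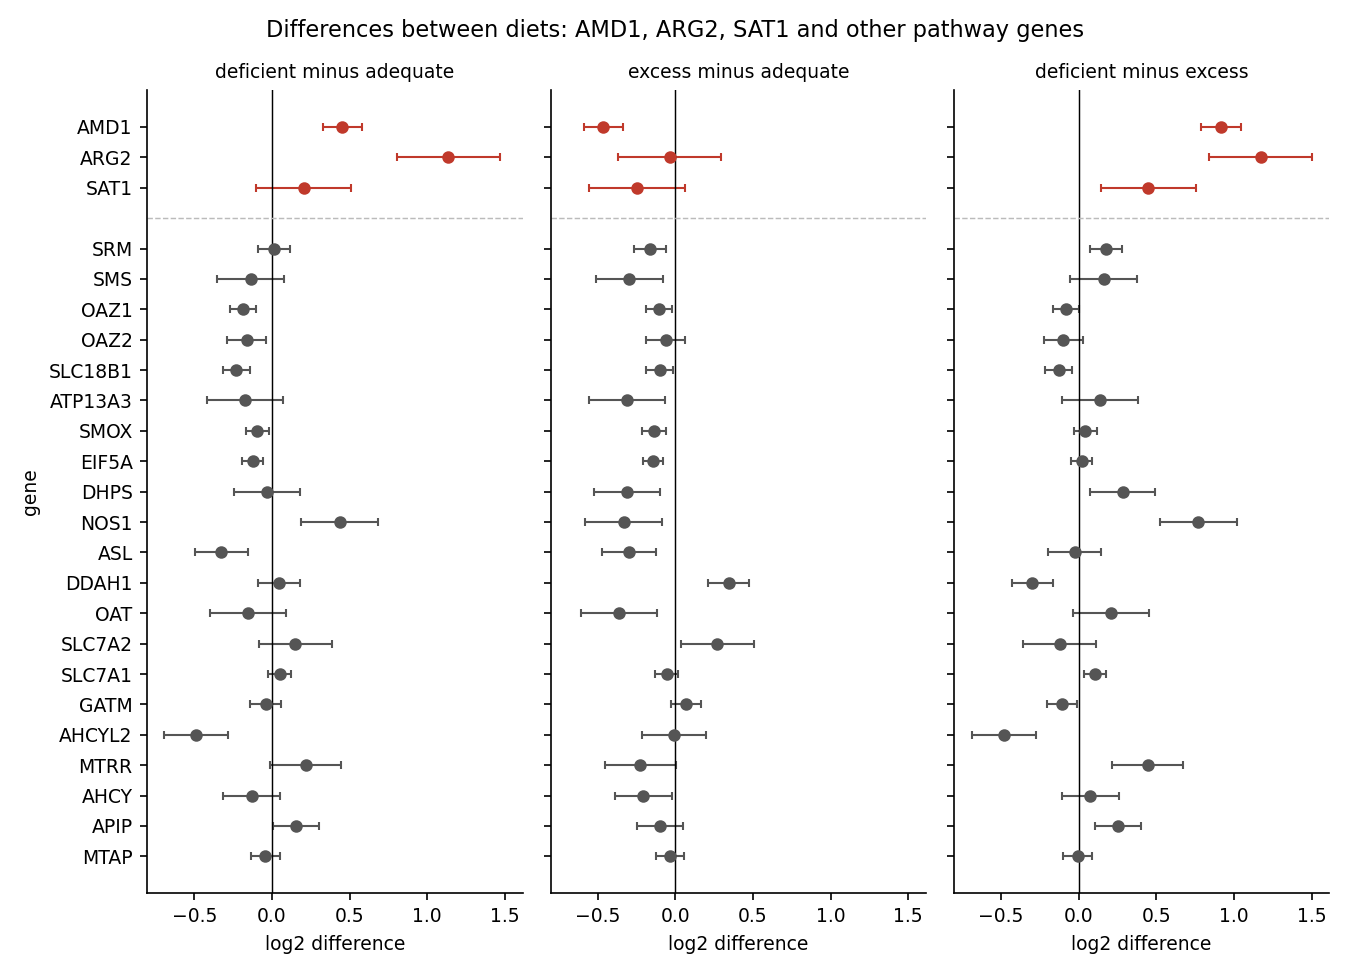
Log2 differences (horizontal axes) between diets for AMD1, ARG2 and SAT1 (red, above the dashed line) and 21 other pathway genes (grey), 1 panel per comparison, with bars of ± 1 SE from the limma fit to all 9 arrays. In the deficient minus adequate panel ARG2 (1.13) lies farthest to the right, followed by AMD1 (0.45) and NOS1 (0.44).

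Of the genes of polyamine breakdown and transport other than SAT1, 2 of 5 were higher and 3 lower in deficient than in adequate pigs (median -0.09), and 1 and 4 in excess than in adequate pigs (median -0.10). Against excess pigs, 3 were higher and 2 lower in deficient pigs (median 0.04). Among these 5, SAT2 and SMOX lay below the median probe set level of 5.07. SLC18B1, a vesicular polyamine transporter, differed by -0.23 ± 0.09 between deficient and adequate pigs (unadjusted p = 0.0299 in limma), with overlap between the pigs. ATP13A3, a polyamine transporter of the P5B ATPases, was at -0.17 ± 0.25 and, in excess pigs, at -0.31 ± 0.25. ATP13A2, a lysosomal relative, differed by 0.21 ± 0.15 between deficient and excess pigs. SMOX, spermine oxidase, dim at a level of 4.61, differed by -0.09 ± 0.08 and -0.14 ± 0.08 from adequate in deficient and excess pigs.

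Spermidine is also the donor for hypusine, a modified lysine found on the translation factor eIF5A. All 3 measured genes of this step lay below the adequate mean in deficient pigs (median -0.03), 2 of 3 after quantile normalization, and in excess pigs (median -0.15). In deficient pigs only 1 of 3 lay below without deficient pig 1 (median 0.04) or with array SD as covariate (median 0.02). All 3 were higher in deficient than in excess pigs (median 0.14), or 2 of 3 after quantile normalization. That count fell to 1 of 3 without excess pig 11 or with array SD as covariate (median -0.02 in each), so the direction is uncertain. EIF5A itself lay below the adequate pigs without overlap in both deficient and excess pigs, by log2 differences of -0.13 ± 0.07 and -0.14 ± 0.07. Such separations occurred in 3.07% and 3.84% of all probe sets. DHPS, which begins the modification, differed by -0.03 ± 0.21 and -0.31 ± 0.21, and by 0.28 ± 0.21 between deficient and excess pigs. DOHH, which completes it, differed by -0.15 ± 0.18 in excess against adequate pigs.

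On the arginine side, 5 of 8 genes besides ARG2 were higher and 3 lower in deficient than in adequate pigs (median 0.03), or 4 and 4 after quantile normalization. The counts were also 5 and 3 in excess pigs (median 0.08, but 0.023 after quantile normalization, 0.027 after median centring, 0.025 without excess pig 10 and 0.030 without adequate pig 5). Between deficient and excess pigs 2 were higher and 6 lower (median -0.03), which turned to 5 and 3 after quantile normalization or median centring. Among these 8, AGMAT, NOS2, ASS1 and OTC lay below the median probe set level of 5.07. AGMAT had the same value, 4.71, in all 3 deficient pigs. NOS1, the nitric oxide synthase of muscle and nerve, which competes with arginase for arginine, differed by 0.44 ± 0.25 between deficient and adequate pigs. Between deficient and excess pigs it was 0.77 ± 0.25 without overlap (unadjusted p = 0.0153 in limma), a separation seen in 4.28% of all probe sets. Its other, dimmer probe set differed by -0.03 ± 0.08 and 0.08 ± 0.08, so the 2 probe sets disagree. DDAH1, which degrades inhibitors of nitric oxide synthase, lay above the adequate pigs in all 3 excess pigs (0.34 ± 0.13, unadjusted p = 0.0352 in limma), as did 3.20% of all probe sets. It lay below the excess pigs in all 3 deficient pigs (-0.30 ± 0.13), as did 2.19%. ASS1, dim at a level of 4.34 and named after its values were seen, differed by -0.26 ± 0.10 between deficient and excess pigs (unadjusted p = 0.0273 in limma). Its other probe set differed by 0.0014 ± 0.07 there. ASL, which makes arginine from argininosuccinate, differed by -0.33 ± 0.17 and -0.30 ± 0.17 from adequate in deficient and excess pigs.

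Ornithine, the product of ARG2, can also pass to proline. OAT, the aminotransferase at that branch, differed by -0.15 ± 0.25 in deficient and by -0.36 ± 0.25 in excess pigs, where all 3 lay below the adequate pigs. The latter separation occurred in 3.84% of all probe sets. ALDH18A1, which makes the same intermediate from glutamate, was at -0.18 ± 0.19 in both, and PYCR3, a proline-forming reductase, at -0.04 ± 0.12 and -0.21 ± 0.12. All 3 measured genes of this list lay below the adequate mean in both diets, and 2 of 3 were higher in deficient than in excess pigs (median 0.18), or 3 of 3 after quantile normalization or median centring. Of the carriers shared by arginine and lysine, SLC7A2 differed by 0.15 ± 0.24 in deficient and 0.27 ± 0.24 in excess pigs. SLC7A1, dim at a level of 4.56, differed by 0.05 ± 0.07 and -0.06 ± 0.07. The whole list of cationic amino acid and ornithine carriers had 5 measured genes: SLC7A1, SLC7A2, SLC7A7, SLC25A15 and SLC25A29. Of these 5, 4 were higher in deficient than in adequate pigs and 4 in excess pigs, the latter 2 after quantile normalization or median centring. Between deficient and excess pigs 2 were higher and 3 lower (median -0.04), or 3 and 2 after median centring. SLC7A1, SLC7A7 and SLC25A15 lay below the median probe set level of 5.07. SLC25A29, a mitochondrial carrier of basic amino acids, differed by 0.10 ± 0.12 and 0.14 ± 0.12, and its other probe set by 0.09 ± 0.15 and -0.07 ± 0.15.

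In creatine synthesis, which also draws on arginine, GATM, its first enzyme, differed by -0.04 ± 0.10 in deficient and 0.07 ± 0.10 in excess pigs against adequate. All 3 deficient pigs lay below all 3 excess pigs in GATM (-0.11 ± 0.10), as they did in 2.19% of all probe sets. The gap was narrow, with 5.497 as the highest deficient and 5.509 as the lowest excess value. CKMT2, the creatine kinase of muscle mitochondria, differed by -0.15 ± 0.15 and -0.05 ± 0.15.

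S-adenosylmethionine is the substrate of AMD1. Of 10 measured genes of its cycle, 3 were higher and 7 lower in deficient than in adequate pigs (median -0.10), and 2 and 8 in excess pigs (median -0.06). In deficient against excess pigs 4 were higher and 6 lower (median -0.04), or 5 and 5 after median centring. Among these 10, MAT1A, BHMT, GNMT and NNMT lay below the median probe set level of 5.07. AHCYL2, a relative of the hydrolase that clears S-adenosylhomocysteine, was at -0.49 ± 0.20 in deficient against adequate pigs and at -0.48 ± 0.20 against excess pigs, with overlap between the pigs in both (unadjusted p = 0.0449 and 0.0476 in limma). AHCY, the hydrolase itself, differed by -0.13 ± 0.18 and -0.21 ± 0.18 from adequate in deficient and excess pigs. CTH, which forms cysteine, differed by -0.34 ± 0.31 in deficient pigs. MTRR, which keeps methionine synthase active, differed by 0.44 ± 0.23 between deficient and excess pigs and by -0.23 ± 0.23 between excess and adequate pigs.

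Methylthioadenosine, the by-product of polyamine synthesis, is recycled to methionine. MTAP, which opens that route, differed by -0.04 ± 0.09 in both deficient and excess pigs against adequate. APIP, a later enzyme, differed by 0.15 ± 0.15 and -0.10 ± 0.15, and by 0.25 ± 0.15 between deficient and excess pigs, and MRI1, which acts between them, by 0.08 ± 0.10 between deficient and excess pigs.

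AMD1 and ARG2 had different nearest neighbours on the array. Likeness was measured as the root mean square difference between log2 values over the 9 arrays, after subtracting each gene's own mean, among 7324 probe sets with 1 gene symbol at or above the median level. Symbols starting with LOC count among the 7324 but were passed over when neighbours were named. A flat profile would lie 0.40 from AMD1 and 0.66 from ARG2. Nearest to AMD1 was CHORDC1, a co-chaperone of HSP90, at 0.094, with means of 10.01, 9.59 and 9.11 in deficient, adequate and excess pigs. DNAJA1, a co-chaperone of HSP70, and ME1, the cytosolic malic enzyme, followed, both at 0.13. CFD, complement factor D, and DNAJB4, a J-domain protein, were both at 0.16. CHORDC1, DNAJA1 and ME1 also ran from deficient through adequate to excess pigs without overlap, with deficient minus excess differences of 0.90 ± 0.11, 0.90 ± 0.10 and 0.88 ± 0.15, beside 0.92 for AMD1.

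Nearest to ARG2 was ATF5, a transcription factor of amino acid and mitochondrial stress, at 0.24, with means of 8.70, 7.37 and 7.58. CEBPG, a transcription factor of the C/EBP family, was at 0.25, FUT1, a fucosyltransferase, at 0.30, XPOT, which exports tRNA from the nucleus, at 0.32, and SLC1A5, a glutamine transporter, at 0.35. Of these, ATF5, CEBPG, FUT1 and XPOT had all 3 deficient pigs above the other 6 pigs, as ARG2 did, while SLC1A5 overlapped. Their deficient minus adequate differences were 1.33 ± 0.36, 0.63 ± 0.33, 1.16 ± 0.21 and 0.55 ± 0.32, and that of SLC1A5 was 0.42 ± 0.28. No gene was among the 5 nearest of both AMD1 and ARG2. The measure counts the size of differences as well as their shape, so separate lists do not show that the patterns differ. The neighbours were picked for their likeness, so their values are a description.

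**Figure D3:**
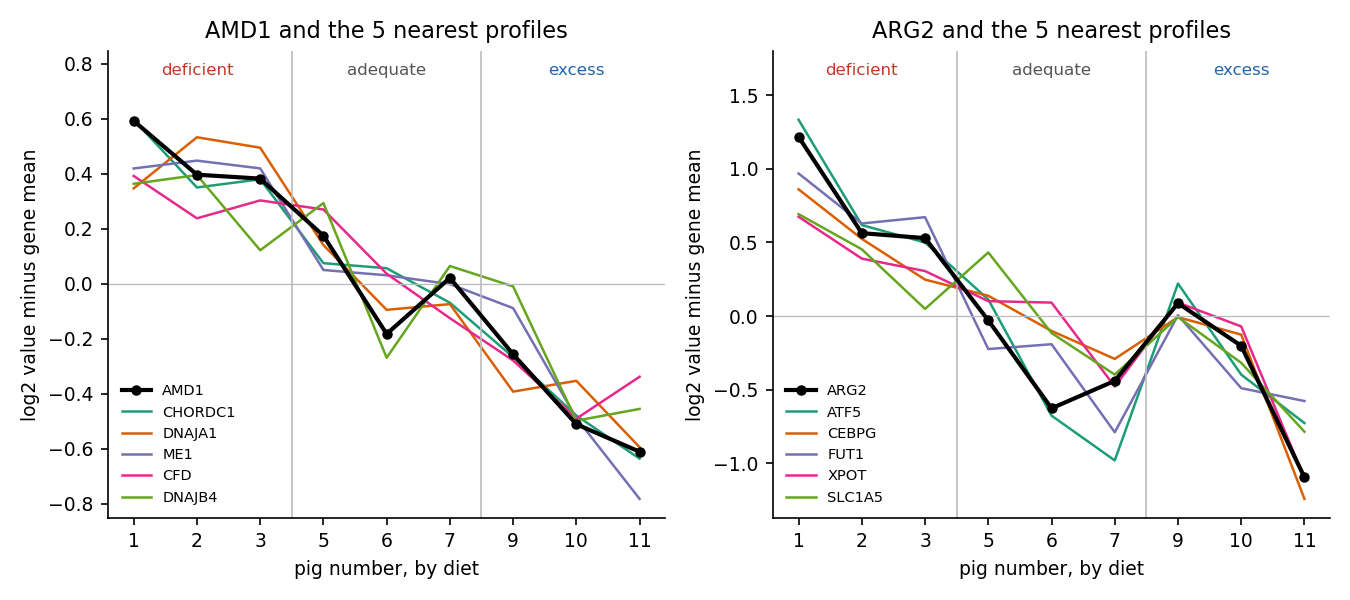
Log2 values minus each gene's mean over 9 arrays (vertical axes, separate scales) in each pig, grouped by diet, for AMD1 (left, black) and ARG2 (right, black) and the 5 genes with the nearest profiles (colours). Lines join pigs for legibility and imply no order: AMD1 and its neighbours step down over the 3 diets, and ARG2 and its neighbours are highest in deficient pig 1.

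The differences held their direction in both contrasts with deficient pigs for AMD1, ARG2 and SAT1 under all 17 alternative settings. Some of these settings cannot change a difference, namely the robust prior with an intensity trend, the 6-array fit and testing fewer probe sets. Leaving out a pig of a diet not compared cannot change it either. AMD1 and ARG2 were also chosen on these contrasts, so the held direction is a description. For AMD1 the deficient minus adequate difference ran from 0.36 to 0.54 and the deficient minus excess difference from 0.83 to 1.02. For ARG2 these ranges were 0.91 to 1.30 and 0.83 to 1.42. For SAT1 they were 0.03 to 0.52 and 0.20 to 0.69. In excess against adequate pigs only AMD1 kept its sign under each of the 17, from -0.57 to -0.36, while ARG2 and SAT1 did not.

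**Figure D4:**
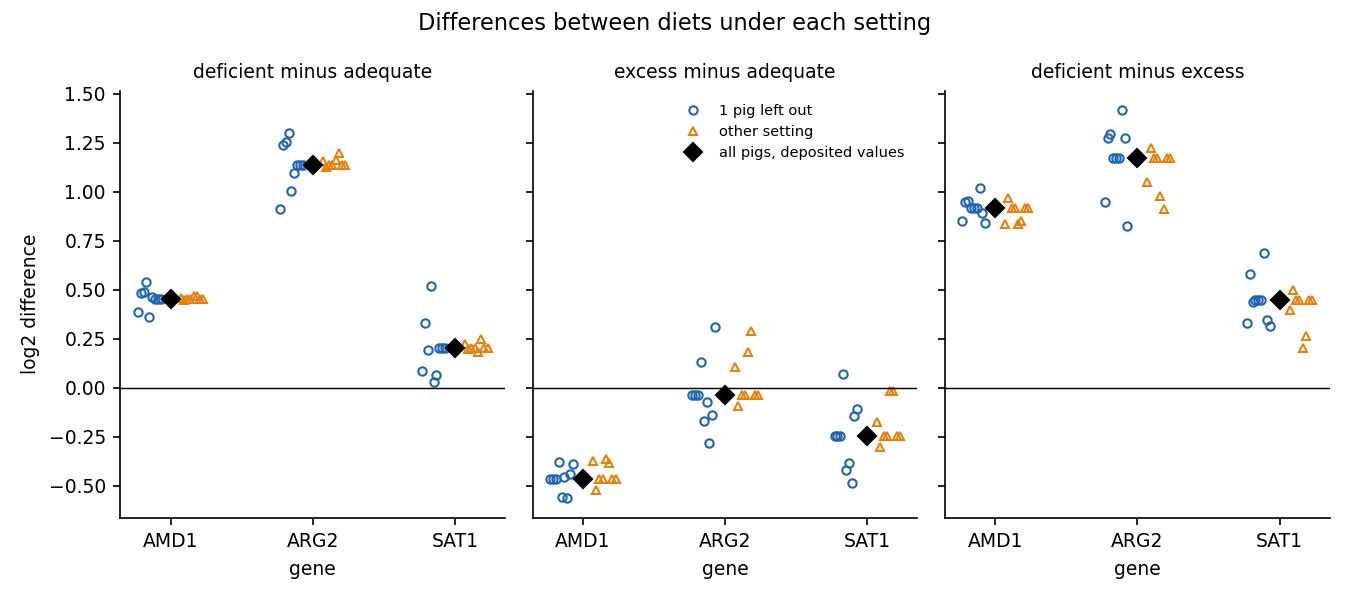
Log2 differences between diets (vertical axis) for AMD1, ARG2 and SAT1 in each comparison, with all pigs and deposited values (black diamonds), with each of the 9 pigs left out (blue circles) and under 8 other settings (orange triangles). Values of AMD1 stay on one side of 0 in every panel, and those of ARG2 and SAT1 cross 0 in the excess minus adequate panel.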

How the data were processed

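The deposited table holds the authors' processed log2 values (base inferred, 3.10 to 14.30, none missing) of 27558 probe sets on 9 arrays, 1 per pig. The submitters' processing notes list GCOS 1.2 and Partek without a role. How background was corrected and arrays were normalized is not given in the sources used here. Symbols came from the platform table, updated through Entrez IDs: 13323 probe sets had 1 symbol (12968 with an ID in the pig gene table, 7 symbols changed), 357 several, and 13878 are unnamed here. No build is stated, so no coordinates are given.

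The values were fitted without further normalization with limma 3.58.1 in R 4.3.3 (1 mean per diet, all 9 arrays, two-sided, Benjamini-Hochberg adjustment over all probe sets, threshold 0.05). The fit was tested on simulated data. The members and gene lists were chosen with earlier results of these data known. A pathway gene is its probe set with the highest mean. Named are each list's 2 genes of at least median level with the largest absolute difference in each comparison, a listed set of key genes (such as SMOX and SLC7A1), and the 5 nearest profiles of AMD1 and ARG2. Alternatives were median centring, a further quantile normalization, array quality weights, a fit to the 6 arrays in question, a robust prior with an intensity trend, array SD as covariate, the dimmest 25% of probe sets left out, only probe sets with 1 symbol, all probe sets of a gene averaged, and each pig left out.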

Additional observations from a re-analysis of the deposited data

How the results depend on the processing

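None of the 44 other pathway genes passed the adjusted threshold in limma in any comparison under any of the 17 settings run. The excess minus adequate difference of ARG2 turned to 0.11 after quantile normalization was applied again, 0.18 with array quality weights and 0.29 with array SD as covariate. With 1 pig left out it ran from -0.28 to 0.31, and that of SAT1 from -0.49 to 0.069. The cause was not tested. Array quality weights gave 1 probe set past the adjusted threshold between deficient and adequate pigs and 1 in the F test. Testing only probe sets with 1 symbol gave 1 between deficient and excess pigs. Probe sets at an unadjusted p below 0.05 between deficient and adequate pigs numbered 511, but 2207 with array quality weights, 1324 with the covariate, 941 with only the 6 arrays compared, 976 without excess pig 11 and 794 without deficient pig 3. In excess against adequate pigs 981 became 4638 without excess pig 9, 272 with the weights, 592 with 6 arrays, 584 without adequate pig 5 and 589 without adequate pig 6. Between deficient and excess pigs 1124 became 3969 without excess pig 9, 1724 with the covariate, 729 with 6 arrays and 456 with the weights, and the 700 of the F test became 2960, 1382 and 1092 without excess pig 9, with the covariate and with the weights.

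Of 30 medians of pathway lists, 16 kept their sign under all settings and 14 did not, so directions of short lists near 0 are uncertain. In alternatives chosen after seeing the data, AMD1 kept its full order of diets with the gap between adequate and excess pigs at 0.074 after quantile normalization and 0.063 after median centring. Of the 5 nearest genes, 4 were shared for AMD1 after quantile normalization and 4 for ARG2 without excess pig 11, and all 5 in the other alternatives tried. No paired analysis was possible because the pig numbers differ between the diets. Signal over background was not measured here, which limits the folds of dim genes.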

Other observations

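Among probe sets with 1 symbol in the full order of deficient above adequate above excess pigs, 1 gene besides AMD1 had a deficient minus excess difference at least as large as that of AMD1. This was PTER, at 1.02, singled out after its values were seen. Of the 51 probe sets in that order, 36 had 1 symbol, and the 51 became 73 without excess pig 11.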
